A study of Rattus norvegicus with 6 samples.

Results

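The genes described here belong to cholesterol synthesis and its control. They were chosen by name, as 8 genes of the 17051 in the kidney RNA tables, and all 8 were present and passed the filter on low counts, as did 11553 genes in all. Of these genes, 6 code for enzymes (Hmgcs1, Idi1, Fdps, Fdft1, Sqle and Cyp51) and 2 for regulators (Insig1 and Srebf2). The list holds no receptor for lipoproteins, so genes of LDL uptake were taken from a separate list. RNA came from kidney tissue of male Sprague Dawley rats. The AL group, labeled normal diet, was 3 rats on standard chow (rats 61, 71 and 88), and the HD group, labeled hyperammonemic diet, was 3 rats whose chow was mixed with amino acids resembling hemoglobin in composition, the daily dose being 3 g/kg (rats 64, 67 and 69). Both diets lasted 7 days, and each rat gave a separate library. The age of the rats was not given in the sources used here.

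Cells make cholesterol from acetyl-CoA through mevalonate, isoprenoid units, squalene and lanosterol. The genes of the pathway are switched on together by the transcription factor SREBP2, the product of Srebf2, which is released from the endoplasmic reticulum when membrane sterol falls. INSIG1 holds the precursor of SREBP2 in place when sterol is plentiful, and Insig1 is itself a target of SREBP2. In kidney the tubule cells both make cholesterol and take up lipoproteins and filtered proteins by endocytosis.

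The depth of the libraries differed, with total estimated counts from 13221487 to 16455405 in the AL group and from 12499945 to 30466461 in the HD group. Summed levels of marker genes also differed between the groups. Proximal tubule markers (6 genes) ranged from 5830 to 6785 CPM (counts scaled to library size, with edgeR's TMM factors) in the AL group and from 7761 to 8924 in the HD group, and podocyte markers (5 genes) from 53.9 to 126 and from 187 to 406. Collecting duct markers (6 genes) ranged from 1957 to 2002 in the AL group and from 1643 to 1767 in the HD group, and the distal tubule markers, almost wholly Slc12a3, from 18.2 to 27.6 and from 51.5 to 287. Gene by gene, the groups were apart in the direction of the sum for 4 of 6 proximal tubule and 3 of 5 podocyte markers. The same held for 3 of 6 collecting duct markers. Over all tested genes, 7.25% had every HD rat above and 7.01% had every HD rat below. Slc5a12, among the 4 proximal tubule genes, was near 0, at 0.166 to 0.679 CPM. Cubn and Atp6v1b1 were among those that overlapped. The kidney label was met by high summed levels of proximal tubule, thick ascending limb and collecting duct markers in every rat. Aqp1 and Slc34a1 made up most of the proximal tubule sum. Slc5a2, like Slc5a12, was low in every rat, at 0.831 to 2.15 CPM. Markers of adrenal cortex, a neighboring tissue rich in cholesterol synthesis, summed to at most 7.70 CPM in any rat, and Cyp11b1 was at 0 in rats 71, 88, 67 and 69. Adipocyte markers (6 genes) were higher, at 293, 173 and 189 CPM in rats 61, 71 and 88 and 171, 443 and 390 in rats 64, 67 and 69. Fabp4 was at 53.6, 29.2 and 33.4 CPM in rats 61, 71 and 88 and at 3.06, 156 and 131 in rats 64, 67 and 69. Cidec, the highest of the 6 in every rat, varied less, from 128 to 190 CPM. The part of fat tissue in the member levels was not tested. In bulk tissue, fewer cells of a type and less RNA per cell cannot be told apart.

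The upstream sequence of 4 members is shown because the levels of these genes followed each other most closely over the rats, Fdps with Insig1 and Hmgcs1 with Srebf2. Hmgcs1 with Cyp51 was nearly as close as Hmgcs1 with Srebf2 (Pearson *r* of 0.843 and 0.846). Each run covers the 200 bases before the RefSeq start site in build GRCr8, read 5′ to 3′ on the strand of the gene. The windows are chr2:53382104-53382303 (plus strand), chr2:176804817-176805016 (minus strand), chr4:8057770-8057969 (minus strand) and chr7:115543107-115543306 (plus strand). Capitals mark a CCAAT box (CCAAT or its complement ATTGG), a GC box (GGGCGG or CCGCCC), an E-box (CACGTG) and, in Srebf2, a match to the sterol regulatory element.
Hmgcs1: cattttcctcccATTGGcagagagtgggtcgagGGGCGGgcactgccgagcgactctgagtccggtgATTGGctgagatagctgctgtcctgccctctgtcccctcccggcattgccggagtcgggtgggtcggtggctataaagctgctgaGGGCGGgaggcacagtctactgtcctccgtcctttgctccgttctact
Fdps: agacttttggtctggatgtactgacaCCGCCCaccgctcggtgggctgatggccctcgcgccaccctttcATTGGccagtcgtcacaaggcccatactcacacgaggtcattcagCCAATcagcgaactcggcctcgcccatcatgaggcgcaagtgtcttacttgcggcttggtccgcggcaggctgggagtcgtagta
Insig1: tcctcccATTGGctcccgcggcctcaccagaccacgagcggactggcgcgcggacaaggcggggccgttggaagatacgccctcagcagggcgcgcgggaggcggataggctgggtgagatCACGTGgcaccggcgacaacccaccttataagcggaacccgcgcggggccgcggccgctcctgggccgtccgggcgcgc
Srebf2: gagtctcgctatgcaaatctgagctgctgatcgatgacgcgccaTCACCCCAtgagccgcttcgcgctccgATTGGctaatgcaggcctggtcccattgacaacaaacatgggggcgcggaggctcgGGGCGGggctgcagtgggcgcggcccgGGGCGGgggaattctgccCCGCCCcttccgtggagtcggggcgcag

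RefSeq windows were matched for 6 of the 8 members, the 4 shown and those of Idi1 and Cyp51. Within 250 bases before the start, the sterol regulatory element, searched on both strands as TCACNCCA, was found in 1 of the 6 (Srebf2), against 3.25% of the windows of all 27457 genes. A CCAAT box was found in 5 of the 6, all but Cyp51, against 34.3% of all windows. A GC box was found in 5 of the 6, all but Idi1, against 32.4%. The E-box, whose letters read the same on both strands, was found in Insig1 alone, against 5.79%. The letters of the sterol regulatory element and the E-box were chosen after the windows had been seen, so their shares beside all windows are no test. Matches of letters are a description of these windows and not of binding.

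None of the 8 members differed between the diets by edgeR's quasi-likelihood test. With Benjamini-Hochberg adjustment and a threshold of 0.05, 0 of 8 were called, with adjusted *P* values from 0.50 to 0.98, and over all 11553 tested genes the share called was 0%. Without adjustment 0 of 8 were called at 0.05, where the share of all tested genes was 10.6%. DESeq2 gave 0 of 8 at either threshold, with 1.58% of all genes past the adjusted threshold and 11.5% past the unadjusted one. The log2 fold changes (HD minus AL) ran from -0.17 for Srebf2 to 0.29 for Fdft1, 4 above and 4 below 0. Their median was 0.016, beside 0.0067 over all tested genes. In each member the 3 HD and 3 AL rats overlapped, while 14.3% of all tested genes had no overlap (7.25% with every HD rat above and 7.01% with every HD rat below). These *P* values set the difference between the diets against the spread between rats of the same diet, with 3 rats each. Both tools moderate that spread with values from all genes.

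**Figure D1:**
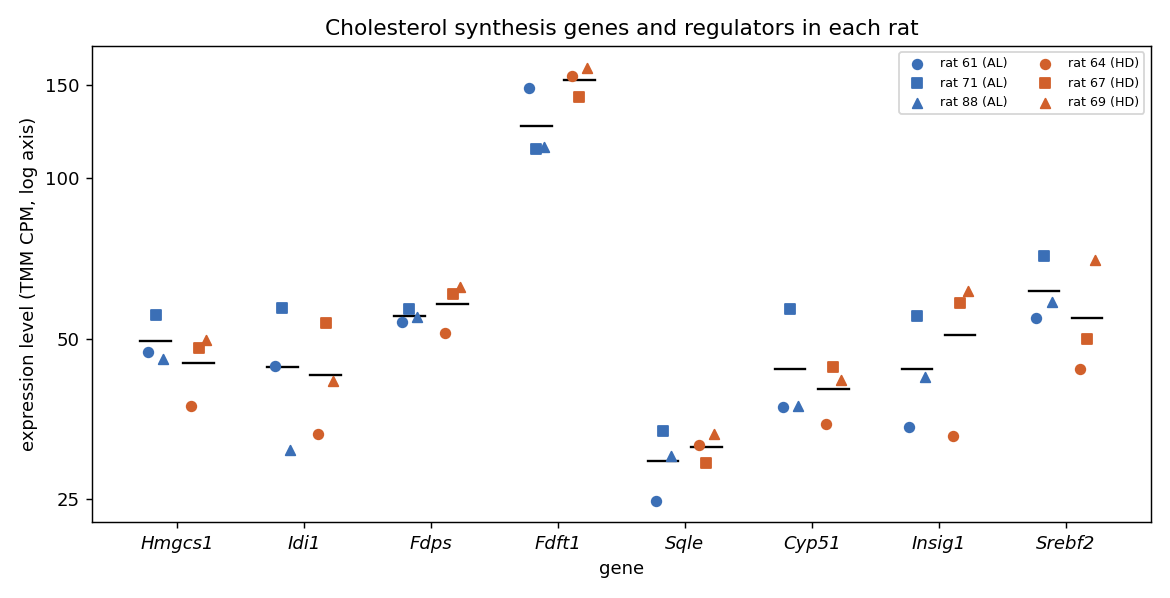
Expression level of the 8 members in each rat, as TMM-scaled CPM on a log axis, with AL rats in blue, HD rats in orange and a black bar at each group mean (n = 3). The groups overlap in every gene, and Fdft1 is the gene with the widest gap between the bars relative to its spread (125 CPM in AL and 153 in HD).

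The enzymes are given in the order of the pathway. Hmgcs1 codes for the cytosolic HMG-CoA synthase, which feeds the mevalonate step. The gene spans positions 70791263 to 70809191 of rn5 chromosome 2, with 11 exons. Its level was 47.3, 55.5 and 45.9 CPM in AL rats 61, 71 and 88, and 37.3, 48.2 and 49.8 in HD rats 64, 67 and 69. The lowest rat was of the HD group and the highest of the AL group, with the others side by side. AL and HD means were 49.6 ± 5.16 and 45.1 ± 6.77 CPM (SD, *n* = 3 each). This gave a log2 fold change of -0.13 (95% interval -0.47 to 0.20, adjusted *P* = 0.811 from edgeR).

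Idi1 codes for the isomerase that converts the isoprenoid units into each other. The gene spans positions 59781714 to 59789305 of rn5 chromosome 17, and 100 bases of its exons are shared with exons of Wdr37 on the opposite strand. The libraries did not keep the strand, so reads in those bases cannot be told apart. Idi1 was at 44.4, 57.2 and 30.97 CPM in rats 61, 71 and 88 and at 33.2, 53.5 and 41.6 in rats 64, 67 and 69. The 3 HD rats lay inside the range of the AL rats. The log2 fold change was -0.05 (95% interval -0.64 to 0.55, adjusted *P* = 0.98).

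Fdps makes farnesyl diphosphate, the last intermediate shared with the non-sterol branch. The gene spans positions 207816332 to 207826348 of rn5 chromosome 2. The 3 AL rats were within 53.7 and 56.8 CPM, and the HD rats were at 51.2, 60.7 and 62.7. Rats 67 and 69 were above every AL rat and rat 64 below every AL rat. The log2 fold change of 0.08 had the narrowest interval of the members (95% interval -0.19 to 0.34, adjusted *P* = 0.870), which spans folds of 0.878 to 1.27.

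Fdft1 codes for squalene synthase, which commits farnesyl diphosphate to sterols. The gene spans positions 50104042 to 50132096 of rn5 chromosome 15. It was at 148, 114 and 114 CPM in rats 61, 71 and 88 and at 156, 143 and 161 in rats 64, 67 and 69. AL rat 61 stood among the HD rats, and the other AL rats were below all of them. AL and HD means were 125 ± 19.5 and 153 ± 9.78 CPM (SD, *n* = 3 each). The log2 fold change was 0.29 (95% interval -0.03 to 0.61), with an unadjusted *P* value of 0.0675 and an adjusted *P* of 0.503 from edgeR (two-sided exact permutation test, *P* = 0.2, where the smallest possible is 0.1). Without rat 61 the log2 fold change was 0.43 (unadjusted *P* = 0.00807, adjusted *P* = 0.204 from edgeR), and without rat 71 it was 0.23.

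Sqle codes for squalene epoxidase, the oxygen-requiring step that follows. The gene spans positions 100197094 to 100211968 of rn5 chromosome 7. Its levels were 24.9, 33.6 and 30.1 CPM in rats 61, 71 and 88 and 31.7, 29.3 and 33.2 in rats 64, 67 and 69. The HD rats lay inside the range of the AL rats, and the log2 fold change was 0.09 (95% interval -0.25 to 0.42, adjusted *P* = 0.887). Cyp51 codes for lanosterol demethylase, a step of the later ring-modifying part of the pathway. The gene spans positions 27078790 to 27097242 of rn5 chromosome 4. It was at 37.3, 56.9 and 37.5 CPM in rats 61, 71 and 88 and at 34.6, 44.2 and 41.9 in rats 64, 67 and 69. Rat 71 stood above the other 5 rats, and the log2 fold change was -0.12 (95% interval -0.58 to 0.33, adjusted *P* = 0.880).

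The regulators varied more between rats than most of the enzymes. Insig1 spans positions 337389 to 345602 of rn5 chromosome 4. Its levels were 34.2, 55.2 and 42.4 CPM in rats 61, 71 and 88 and 32.8, 58.5 and 61.5 in rats 64, 67 and 69. The HD group held both the lowest and the highest rats, and the log2 fold change was 0.22 (95% interval -0.41 to 0.84, adjusted *P* = 0.841). This is the widest interval of the 8 members, and it spans folds of 0.755 to 1.79. Srebf2 spans positions 123364495 to 123422296 of rn5 chromosome 7, with 20 exons, and the microRNA gene Mir33 lies within its span and outside its exons. Srebf2 was at 54.8, 71.4 and 58.6 CPM in rats 61, 71 and 88 and at 43.9, 49.9 and 70.4 in rats 64, 67 and 69. HD rats 64 and 67 were below every AL rat, while rat 69 was close to rat 71, the highest. The log2 fold change was -0.17 (95% interval -0.63 to 0.29, adjusted *P* = 0.832). Without rat 69 it was -0.39 (unadjusted *P* = 0.0377, adjusted *P* = 0.290 from edgeR), while it was -0.03 without rat 64 and -0.05 without rat 71.

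**Figure D2:**
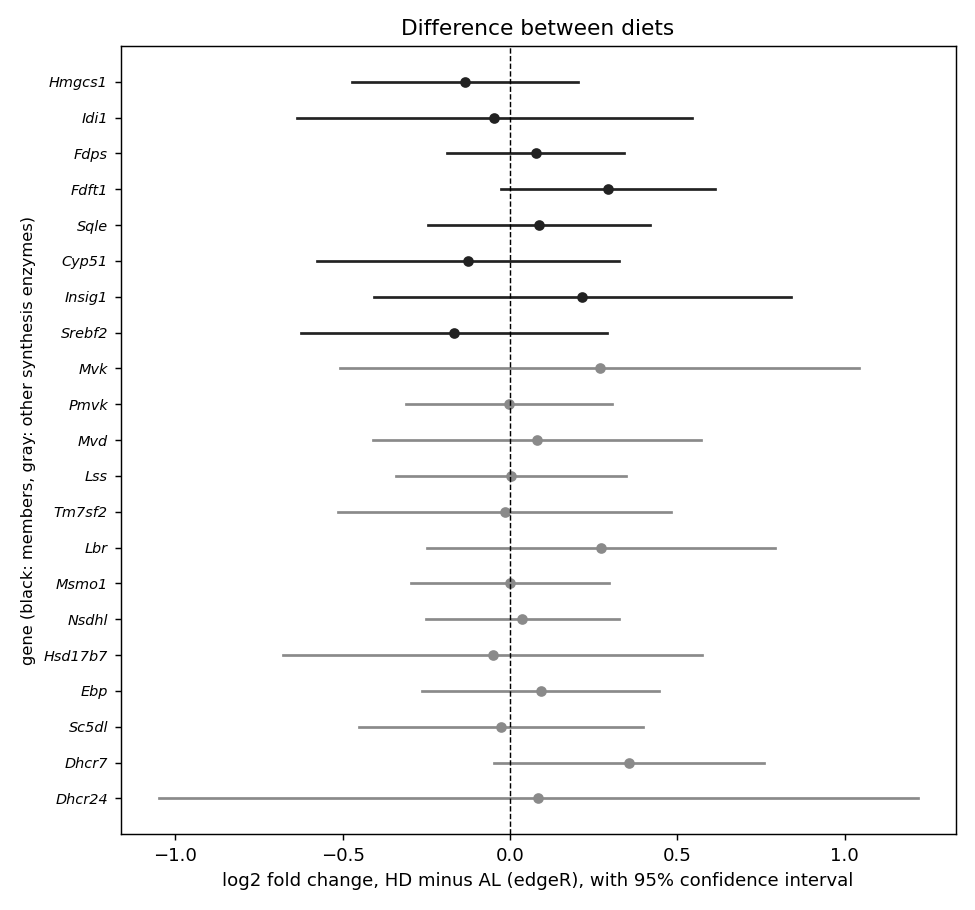
Log2 fold change (HD minus AL, edgeR) with its 95% confidence interval for the 8 members in black and 13 other synthesis enzymes in gray, with a dashed line at 0. All the intervals include 0, and those of Fdft1 (-0.03 to 0.61) and Dhcr7 (-0.05 to 0.76) reach least below it.

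Levels between genes were compared per transcript length, as TPM (the deposited measure, which divides by length) summed over the transcripts of a gene. Fdps and Fdft1 were the highest members, with 71.0 ± 8.44 and 62.4 ± 4.43 TPM in the AL group and 71.1 ± 10.2 and 73.4 ± 8.40 in the HD group (SD, *n* = 3 each). Their order was reversed between the groups, and within each group the rats of the 2 genes overlapped, from 62.3 to 79.1 TPM for Fdps and from 58.2 to 67.0 for Fdft1 in the AL group. Insig1 followed with 29.4 ± 9.57 and 32.1 ± 10.8 TPM. Idi1, Sqle, Hmgcs1 and Cyp51 had means over the 6 rats between 21.8 and 24.1 TPM, and these 4 neighbors did not differ beyond their spread. Srebf2 had the lowest means, with 19.6 ± 4.48 and 16.6 ± 5.17 TPM, and within each group its rats overlapped those of these 4 genes.

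Levels of most members varied together from rat to rat. Of the 28 pairs of members, 22 had a Pearson correlation above 0 over the 6 rats, with a median of 0.492 and a range of -0.496 to 0.939. These correlations are descriptions over the same 6 libraries, and the like count over pairs of other genes was not made, nor were the rankings of rats that follow. Rat 71 was the highest AL rat in 7 of the 8 members and rat 69 the highest HD rat in 6. Rat 64 was the lowest HD rat in 6 of the 8 and the lowest of all 6 rats in 5. The mean deviation of the members from their own mean over the rats was -0.10, 0.20 and -0.13 on the log2 scale in rats 61, 71 and 88, and -0.21, 0.09 and 0.16 in rats 64, 67 and 69. Rats 71 and 69 were also the deepest libraries of their groups, with 16455405 and 30466461 counts, and rat 64 was the shallowest of all, and the part of depth in these deviations was not tested.

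**Figure D3:**
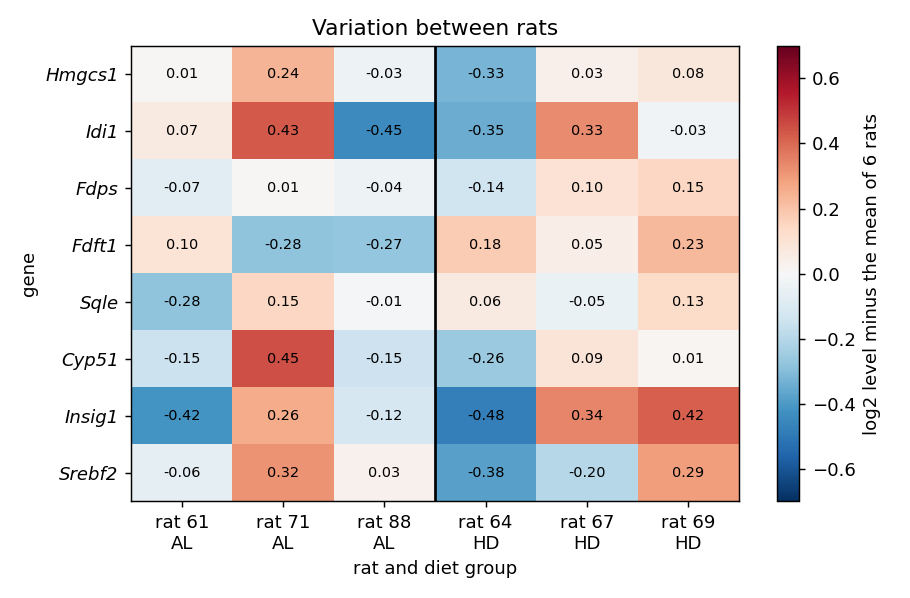
Log2 level of each member in each rat minus the mean of that gene over the 6 rats, with red above and blue below the mean and the AL rats left of the black line. Rats 71 and 69 are mostly red and rat 64 mostly blue, and Fdft1 departs from the other genes, at -0.28 in rat 71 and 0.18 in rat 64.

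Fdft1 was the member that did not follow the others. Its correlation with the mean of the other 7 members was -0.297, where the other members had values from 0.365 (Sqle) to 0.846 (Insig1). The closest pair was Fdps with Insig1 (*r* = 0.939), followed by Hmgcs1 with Srebf2 (*r* = 0.846), the genes whose upstream windows are printed above. Hmgcs1 with Cyp51 (*r* = 0.843) and Idi1 with Cyp51 (*r* = 0.824) were close behind. Among the 9382 tested genes with a mean of at least 5 CPM, the median correlation with the mean member pattern was -0.0537. Of these genes 46.5% were above 0 and 1.82% above 0.8. Outside all lists, the most alike were Apoh (0.978), Supt5h (0.978), Rasgrp3 (0.977), Sh3d21 (0.965) and Igsf3 (0.962). Of the listed pathway genes the most alike was Nsdhl, an enzyme of sterol demethylation, with 0.920. Among those with a mean of at least 5 CPM, other synthesis enzymes went down to -0.299 and the listed pathway genes as a whole to -0.835.

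The other enzymes of cholesterol synthesis described here were 14 listed genes, of which 13 were tested and Acat2 was not analysed here. In edgeR 0 of the 13 passed the adjusted threshold, and 0 had an unadjusted *P* value below 0.05, where 4.66% of all tested genes were called higher and 5.94% lower on the hyperammonemic diet. Log2 fold changes ranged from -0.05 to 0.36 around a median of 0.037. The smallest *P* value was that of Dhcr7, which codes for the reductase of 7-dehydrocholesterol, the last step of a route to cholesterol. It was at 92.5, 112 and 85.1 CPM in rats 61, 71 and 88 and at 142, 131 and 97.8 in rats 64, 67 and 69. HD rats 64 and 67 were above every AL rat, while rat 69 was below rat 71, so the groups overlapped. AL and HD means were 96.4 ± 13.7 and 123 ± 23.0 CPM (SD, *n* = 3 each). The difference on the log2 scale was 0.36 (95% interval -0.05 to 0.76, unadjusted *P* = 0.0757, adjusted *P* = 0.524 from edgeR).

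Of 11 genes of sterol sensing, 9 were tested. In edgeR 0 had an unadjusted *P* value below 0.05, against 10.6% of all tested genes, and 0 passed the adjusted threshold. Their log2 fold changes were above 0 in 8, beside 5928 of all 11553 tested genes, and ran from -0.0085 to 0.38. Several of the 8 were near 0, such as Stard4 (0.019) and Mbtps1 (0.027). The smallest *P* value was that of Erlin1, whose product acts in protein breakdown at the endoplasmic reticulum, with levels of 91.6, 74.9 and 69.6 CPM in rats 61, 71 and 88 and 114, 118 and 76.3 in rats 64, 67 and 69. The groups overlapped, and the log2 fold change was 0.38 (95% interval -0.07 to 0.83, adjusted *P* = 0.534). In the non-sterol branch, 9 of 10 listed genes were tested and 0 had an unadjusted *P* value below 0.05 in edgeR, against the same 10.6%. The smallest *P* value there was that of Pggt1b, a subunit of geranylgeranyl transferase, with a log2 fold change of -0.40 (95% interval -0.92 to 0.12, adjusted *P* = 0.578).

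All 11 genes of lipoprotein uptake described here were tested. In edgeR 0 passed the adjusted threshold and 0 had an unadjusted *P* value below 0.05, against 10.6% of all tested genes. The log2 fold changes were above 0 in 8 and below 0 in 3, beside 5928 above 0 of all 11553 tested genes. The groups did not overlap in 1 of the 11 genes, where 14.3% of all tested genes had no overlap (7.25% with every HD rat above). That gene was Lrpap1, a chaperone of endocytic receptors, named after its values were seen. Its levels were 648, 651 and 624 CPM in rats 61, 71 and 88 and 728, 737 and 710 in rats 64, 67 and 69 (log2 fold change 0.18, adjusted *P* = 0.619 from edgeR). The log2 fold change farthest from 0 was that of the endocytic receptor Lrp1, also named after its values were seen, at -0.95 (unadjusted *P* = 0.106 from edgeR and 0.0435 from DESeq2), with overlapping groups. The smallest *P* value was that of Dab2, an adaptor that links endocytic receptors to clathrin. It was at 115, 131 and 116 CPM in rats 61, 71 and 88 and at 219, 189.9 and 115 in rats 64, 67 and 69. HD rats 64 and 67 were above every AL rat, and rat 69 was level with the lowest AL rats. The log2 fold change was 0.53 (95% interval -0.00058 to 1.06, unadjusted *P* = 0.0502, adjusted *P* = 0.471 from edgeR). Without rat 69 it was 0.77 (unadjusted *P* = 0.000694, adjusted *P* = 0.154 from edgeR), while without rat 64 it was 0.33 (unadjusted *P* = 0.178). Over the 6 rats, the two-sided exact permutation test gave *P* = 0.4. Proximal tubule markers summed to 6785, 6012 and 5830 CPM in rats 61, 71 and 88 and to 8924, 7761 and 7939 in rats 64, 67 and 69, and their part in the level of Dab2 was not tested.

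**Figure D4:**
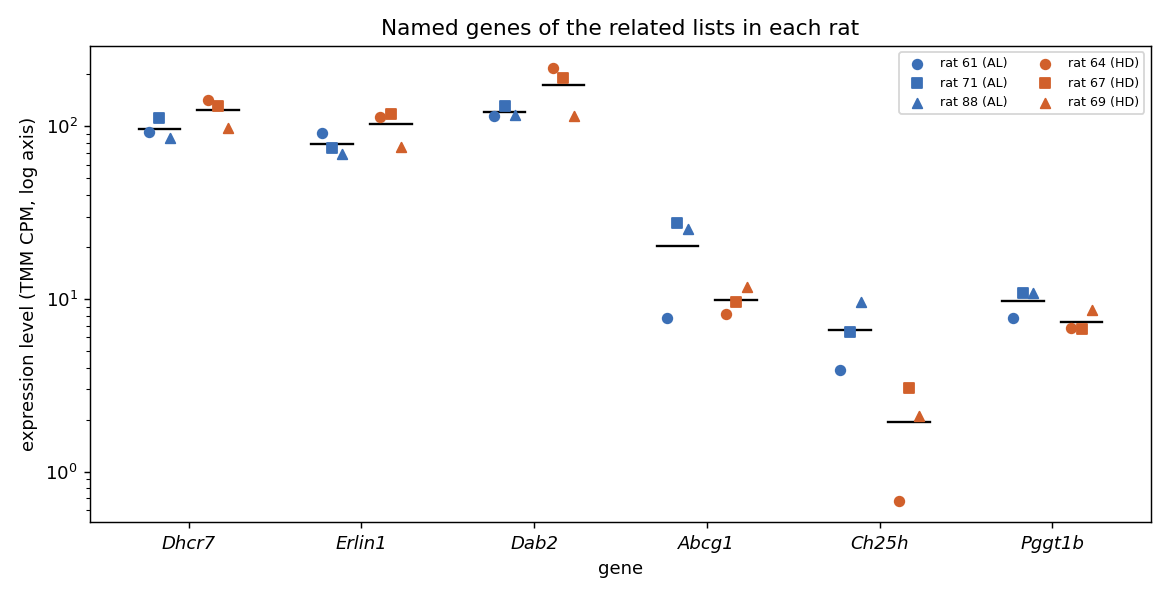
Level in each rat, as TMM-scaled CPM on a log axis, of the 6 named genes outside the members, with AL rats in blue, HD rats in orange and a black bar at each group mean (n = 3). Ch25h is the gene whose groups do not overlap, and the other 5 overlap, where 14.3% of all tested genes had no overlap.

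Of 10 genes of sterol efflux and esterification, 8 were tested and Abcg5 and Abcg8 were below the count minimum. None passed the adjusted threshold in edgeR, and 2 of the 8 had an unadjusted *P* value below 0.05, both lower in the HD group, where 5.94% of all tested genes were called lower. Ch25h, which makes 25-hydroxycholesterol, an inhibitor of SREBP2 release, was at 3.89, 6.43 and 9.60 CPM in rats 61, 71 and 88 and at 0.679, 3.05 and 2.11 in rats 64, 67 and 69. Every HD rat was below every AL rat, with a log2 fold change of -1.73 (95% interval -3.00 to -0.47, adjusted *P* = 0.406 from edgeR). Abcg1, a sterol exporter abundant in macrophages, was at 7.78, 27.5 and 25.4 CPM in rats 61, 71 and 88 and at 8.15, 9.54 and 11.8 in rats 64, 67 and 69. AL rat 61 was below every HD rat, the groups overlapped, and the log2 fold change was -1.04 (95% interval -2.05 to -0.03, adjusted *P* = 0.462). Without rat 61 it was -1.42 (unadjusted *P* = 0.000248, adjusted *P* = 0.106 from edgeR). Leaving out any other rat lost the unadjusted call, with *P* values from 0.0590 to 0.152 in edgeR and a log2 fold change of -0.76 without rat 71. For Ch25h the call was lost without rat 88 (log2 fold change -1.38, unadjusted *P* = 0.0517 from edgeR). Leukocyte markers (6 genes) summed to 223 to 371 CPM in the AL group and 134 to 291 in the HD group, with Cd74 making up most of the sum. Of the 6, Ptprc and Cd3e were lower in every HD rat than in every AL rat. Over all tested genes, 7.01% had every HD rat below. Cd3e was near 0, at 0.556, 1.89 and 0.529 CPM in rats 61, 71 and 88. In rats 64, 67 and 69 Cd3e was at 0, 0 and 0.192. Ptprc was at 7.15, 17.4 and 9.33 CPM in rats 61, 71 and 88 and at 2.80, 3.25 and 4.96 in rats 64, 67 and 69. Csf1r, a macrophage marker, was at 16.6, 51.0 and 34.7 CPM in rats 61, 71 and 88. In rats 64, 67 and 69 it was at 11.8, 13.5 and 19.4, so rats 71 and 88 were highest as for Abcg1. Ptprc and Cd68 were highest in these rats too. Cd74, Itgam and Cd3e were highest in rat 71, but rat 88 was below rat 61 or rat 69. Inner medulla markers (3 genes) were also highest in rats 71 and 88, at 248 and 521 CPM summed, though Slc5a3 was highest in rat 61. Their sum was 104 in rat 61 and 46.2, 54.6 and 106 in rats 64, 67 and 69. Endothelium markers (5 genes) summed to 98.2, 242 and 263 CPM in rats 61, 71 and 88. In rats 64, 67 and 69 they summed to 74.4, 122 and 243. Pecam1, Emcn and Tek were highest in rats 71 and 88, and Kdr and Cdh5 in rat 69. The part of any of these cell types in the levels of Abcg1 and Ch25h was not tested.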

How the data were processed

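Kidney RNA of 6 rats (3 AL, 3 HD) was sequenced as poly(A)-selected, unstranded single-end libraries. The authors quantified transcripts with RSEM 1.1.15 and the UCSC gene definitions for rn5, and deposited the estimated count (expected count, not normalized), its posterior mean, and TPM, which RSEM scales to length and library size. FPKM values were not used. Expected counts were summed per gene and rounded. Genes with at least 30 counts in at least 1 rat were tested with edgeR 4.0.16 (R 4.3.3, quasi-likelihood test, TMM, diet as the only factor, Benjamini-Hochberg over all tested genes), which was tested on simulated data. The standard error was the absolute log2 fold change divided by the square root of F, and 95% intervals used the t distribution of that fit. DESeq2 1.42.0, the tool of the study, was an alternative. Exact permutation tests used log2(CPM + 0.5) in scipy 1.17.1. The members and lists were chosen with earlier results of these data known, and the letters of the sterol regulatory element and E-box after the windows had been seen. Named outside the members were all genes of a pathway list with an unadjusted *P* value below 0.05, or else the gene with the smallest, and the 5 genes outside the lists most like the mean member pattern. A few genes of the pathway lists are not reported here, and counts over those lists leave them out. Promoter windows are from RefSeq (GRCr8), and gene coordinates are those of the files (rn5).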

Additional observations from a re-analysis of the deposited data

How the results depend on the processing

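No paired analysis was possible because the rats of the 2 groups share no number or litter in the labels. The count of members past the adjusted threshold was 0 under every alternative run: DESeq2, RLE normalization, library size alone, no filter, at least 10 counts in every rat, posterior mean counts and each rat left out. At an unadjusted *P* value below 0.05 the count was 0 in edgeR, and 0 to 1 with a rat left out, with 1 gene each without rat 61 (Fdft1) and without rat 69 (Srebf2), where 14.9% and 15.6% of all genes tested were below 0.05. The median log2 fold change of the members was -0.069 with library size alone, which moved the median of all genes to -0.074, and -0.049 to 0.15 with a rat left out. With library size alone, Fdps (-0.0030) and Sqle (-0.0019) changed sign. With a rat left out, the log2 fold change of Cyp51 ran from -0.23 to 0.11, that of Idi1 from -0.24 to 0.18, that of Sqle from -0.022 to 0.19, that of Srebf2 from -0.39 to -0.03 and that of Insig1 from 0.06 to 0.45. Alternatives for genes outside the members were chosen after seeing the data. Dab2 was below an unadjusted *P* value of 0.05 with DESeq2 (0.0305) and in edgeR with no filter (0.0380), with posterior mean counts (0.0499) and without rat 69 (0.000694). Other gains in edgeR were Dhcr7 without rat 71 (0.0404) or rat 69 (0.0119), Erlin1 without rat 61 (0.0470) or rat 69 (0.00666), and Pggt1b without rat 61 (0.0377). Losses were Abcg1 without any rat but 61 (0.0590 to 0.152) and Ch25h without rat 88 (0.0517). With at least 10 counts in every rat Ch25h was not tested. None of these 6 genes passed the adjusted threshold under any of the alternatives. Members had 313 to 5051 counts a rat. Intervals of the fold ran from 0.878 to 1.27 (Fdps, the narrowest) to 0.755 to 1.79 (Insig1, the widest).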
